A study of Mus musculus with 37 samples.

Results

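The genes described here encode core splicing factors and heterogeneous nuclear ribonucleoproteins (hnRNPs). They were taken by symbol: every gene named Srsf, Snrp, Hnrnp, Sf3a or Sf3b with a number or letter, U2af or Prpf, and read by a probe set that carries exactly 1 gene symbol (the one with the highest mean where there were several). This gave 61 of the 19938 genes read in this way: 17 hnRNP proteins, 12 Prp proteins, 10 SR proteins, 10 Sm and other small nuclear ribonucleoprotein (snRNP) proteins, 9 subunits of SF3a and SF3b, and 3 U2AF proteins. Among the protein-coding genes with such symbols that were not measured here, Hnrnpa1, Hnrnpa3, Hnrnph3, Snrpf and Snrpn share their probe sets with other symbols, and Srsf7 had no probe set of 1 symbol.

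Whole right lungs were profiled on Affymetrix Mouse Gene 1.0 ST arrays in 2 inbred strains, B6 (C57BL/6J) and A/J, neither carrying an engineered allele or a treatment. B6 lungs were collected daily between E15.5 and E18.5 and at PN0, and A/J lungs daily between E15.5 and E20.5 and at PN0, where E is the embryonic day and PN0 the day of birth. Each of the 3 replicates per group is 1 litter, with the lungs of 3 males pooled, so a value is a mean over littermates and over all cells of the lung. A/J pups are born later than B6 pups, so PN0 is not the same age in the 2 strains. Levels are log2 intensities, differences are differences of log2 levels with their standard error (SE) from the fit, and a difference of 1 is a change of 2-fold.

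Splicing removes introns in the spliceosome, which is assembled anew on each intron. The Sm proteins form a ring around the small nuclear RNAs of the U1, U2, U4 and U5 snRNPs; U2AF and SF3a and SF3b place the U2 snRNP at the 3′ end of the intron; the Prp proteins belong to the tri-snRNP and to the catalytic and accessory complexes. SR proteins mostly promote the use of exons to which they bind, and hnRNPs coat the transcript and often oppose them. These genes are expressed in nearly all cells and are abundant in dividing ones.

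Lung markers were expressed in both strains, with the surfactant gene Sftpc between 12.74 and 13.90 in the A/J group means and Nkx2-1, the transcription factor of lung epithelium, between 9.31 and 9.90. The mean of 7 lung epithelium markers was between 9.68 and 10.96 in the B6 group means and between 9.61 and 10.97 in those of A/J. The mean of 7 liver markers was highest in 4 replicates, at 8.81 in B6 E15.5 replicate 1, 7.76 in B6 E16.5 replicate 1, 7.64 in A/J E15.5 replicate 1 and 7.14 in A/J E19.5 replicate 2, against a lowest value of 5.41 over all replicates. The mean of 8 heart markers was highest, at 9.55, in A/J E15.5 replicate 1. The mean of 8 markers of esophagus and upper airway also varied between replicates of a group. It ran from 5.755 to 7.434 in A/J E19.5, 5.706 to 7.309 in A/J E20.5, 5.804 to 7.431 in A/J PN0 and 5.975 to 7.144 in B6 E17.5. Leaving out each of the E15.5 and PN0 replicates in turn kept the counts of genes that fell between them at 51 to 53 in each strain, and strain counts without single E16.5 and E19.5 replicates stand beside those comparisons. The 3 A/J E18.5 arrays had medians of 6.47 to 6.54, against 6.34 to 6.5 on the other 34 arrays, and the main counts that rest on them are given also with every array centred on its median. The spread between replicates was small for these genes: the median SD over the 61 genes was between 0.042 (B6 E15.5) and 0.103 (A/J E18.5) log2 units.

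Most of the splicing factor genes were lower at birth than at E15.5 in both strains. In B6, 53 of the 61 genes fell (86.9%) where 26.6% of all 21789 probe sets tested fell, and 3 rose where 24.4% of all did. In A/J, 53 of the 61 fell against 25.8% of all, and 2 rose against 25.2% of all. The median difference between PN0 and E15.5 over the 61 genes was -0.61 in B6, beside -0.00 over all probe sets, and -0.63 in A/J, beside -0.04 over all. Requiring a fold of 1.5 as well left 34 genes lower in B6 (13.4% of all probe sets) and 35 in A/J (11.8%), and none higher in either strain (12.7% and 13.7% of all probe sets in B6 and A/J), where 3 in B6 and 2 in A/J were higher at an unadjusted p under 0.05. A gene was counted as fallen or risen when limma's moderated test gave an adjusted p under 0.05, with adjustment over all probe sets tested.

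The same direction was found gene by gene, although each strain was compared with its own E15.5 lungs: 52 genes fell in both strains, where 21.3% of all probe sets did, and 2, Prpf18 and Srsf5, rose in both, where 20% of all did. Sf3b4 passed as lower in A/J alone, Prpf40b as lower and Sf3b6 as higher in B6 alone, and Prpf38b, Sf3a2, Srsf11 and U2af1l4 in neither strain. Over the 61 genes the differences in the 2 strains had a Pearson r of 0.917 and a Spearman rho of 0.893, with 59 of the same sign (96.7%), and over all 21789 probe sets r was 0.925, with 17305 of the same sign (79.4%). Genes are not independent replicates, and the strains were measured on the same array design.

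**Figure D1:**
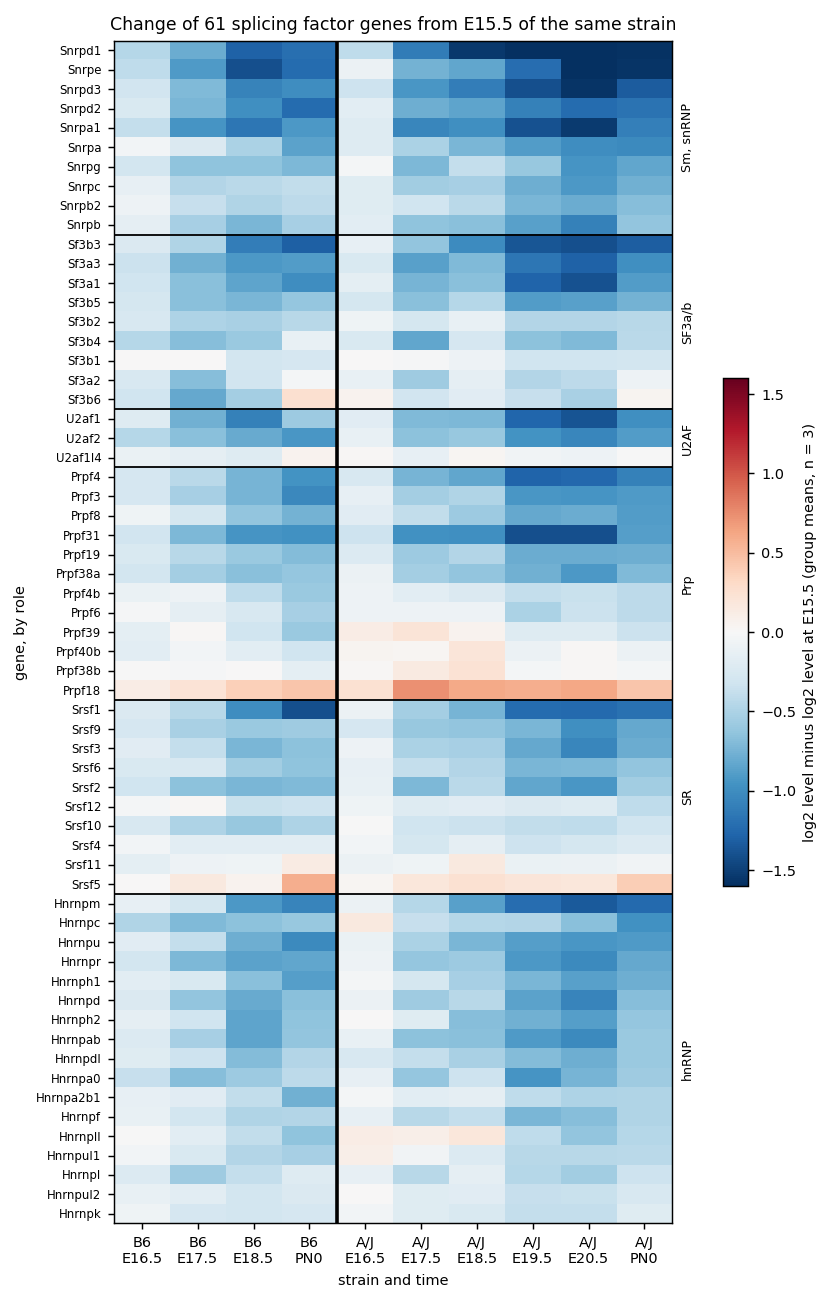
Colour gives the difference of each of the 61 genes (rows, by role, ordered within a role by the A/J difference at PN0) from E15.5 of its own strain, on a log2 scale, for each later group of B6 (left) and A/J (right), as group means of 3 replicates. Blue rows fill most of the Sm, SF3, U2AF, hnRNP and SR blocks from E17.5 on, with Prpf18 and Srsf5 the clearly red rows at PN0 in both strains.

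The snRNP proteins fell without exception, all 10 in B6 and all 10 in A/J, and had the lowest median of the 6 roles, -0.89 in B6 and -1.06 in A/J. Snrpe, a subunit of the Sm ring, had levels of 8.67, 8.65 and 8.76 in B6 at PN0 against 10.05, 9.93 and 9.78 at E15.5, and of 8.30, 8.60 and 8.21 in A/J at PN0 against 9.96, 10.13 and 9.73 at E15.5. The groups did not overlap in either strain, and the differences were -1.23 ± 0.14 (SE, adjusted p = 2.8e-09) in B6 and -1.57 ± 0.14 (adjusted p = 1.38e-11) in A/J. Snrpd1, another ring subunit, was at 8.88, 8.96 and 9.03 in B6 at PN0 against 10.19, 10.16 and 10.14 at E15.5, and at 8.86, 8.90 and 8.82 in A/J at PN0 against 10.67, 10.23 and 10.42 at E15.5. Its fall, of -1.21 ± 0.12 in B6 and -1.58 ± 0.12 in A/J, was again larger than any spread between litters.

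The ring subunits Snrpd2 and Snrpd3 moved by similar amounts, Snrpd2 by -1.23 in B6 and by -1.18 in A/J, and Snrpd3 by -0.997 in B6 and by -1.33 in A/J. All 5 probe sets of Snrpd2 fell in both strains, although 4 of them lie, in the order of the probe set numbers, among genes of other chromosomes. Snrpa1, which binds U2 small nuclear RNA, fell by 0.91 in B6 and by 1.1 in A/J, and Snrpa, a protein of the U1 snRNP, by 0.86 in B6 and by 1.02 in A/J. Snrpg, Snrpc, Snrpb2 and Snrpb had smaller falls, between 0.40 (Snrpc) and 0.72 (Snrpg) in B6 and between 0.63 (Snrpb) and 0.83 (Snrpg) in A/J. Snrpb2 had the smallest range of group means in this role.

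Among the SF3a and SF3b genes, whose products form the part of the U2 snRNP that holds the branch point, 6 of 9 fell in B6 and 7 of 9 in A/J. Sf3b3 had levels of 9.92, 9.85 and 9.81 in B6 at PN0 against 11.16, 11.18 and 11.15 at E15.5, and of 9.84, 9.85 and 9.89 in A/J at PN0 against 11.17, 11.24 and 11.12 at E15.5. The replicates of each group lay close together and far from the other group, and the differences were -1.30 ± 0.07 (adjusted p = 9.13e-17) in B6 and -1.32 ± 0.07 (adjusted p = 5.69e-17) in A/J. Sf3a1 fell by 0.99 in B6 and by 0.89 in A/J, Sf3a3 by 0.90 in B6 and by 0.98 in A/J, and Sf3b5 by 0.61 in B6 and by 0.76 in A/J. Sf3b1, the subunit at the centre of the complex, had the smallest range over time in this role, with falls of 0.26 in B6 and 0.30 in A/J that passed the test. Sf3a2 differed by -0.03 in B6 and -0.08 in A/J and passed in neither.

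Sf3b6, the SF3b subunit that touches the branch point, went the other way in B6: its levels were 8.58, 8.71 and 8.72 at PN0 against 8.45, 8.47 and 8.32 at E15.5, without overlap. The difference of 0.26 ± 0.10 (adjusted p = 0.0262) was lost without B6 E15.5 replicate 3 (adjusted p = 0.114), without B6 PN0 replicate 2 (adjusted p = 0.076) and without B6 PN0 replicate 3 (adjusted p = 0.0833), by limma in each case. In A/J the difference was 0.04 ± 0.10 (adjusted p = 0.77). Sf3b4 is read here by a probe set that lies, in the order of the probe set numbers, among genes of another chromosome; it differed by -0.12 in B6 (adjusted p = 0.362) and by -0.44 in A/J. The Sf3b4 probe set that lies among genes of its own chromosome differed by -0.75 in B6 (adjusted p = 0.000171) and by -0.91 in A/J (adjusted p = 1.15e-05).

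Of the 3 U2AF genes, U2af1 and U2af2, which encode the subunits that read the 3′ splice site and the polypyrimidine tract, fell in both strains and U2af1l4 did not pass in either. U2af2 was at 8.43, 8.68 and 8.82 in B6 at PN0 against 9.62, 9.58 and 9.52 at E15.5, a difference of -0.93 ± 0.09, and at 8.81, 8.80 and 8.63 in A/J at PN0 against 9.67, 9.69 and 9.55 at E15.5, a difference of -0.89 ± 0.09. U2af1 fell by 0.58 in B6 and by 0.98 in A/J. U2af1l4, a relative of U2af1, differed by 0.06 ± 0.07 in B6 and -0.00 ± 0.07 in A/J, and its group means lay between 8.29 and 8.58.

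Of the 12 Prp genes 10 fell and 1 rose in B6, and 9 fell and 1 rose in A/J. Prpf4 and Prpf3, partners in the U4/U6 snRNP, fell by 0.95 and 1.03 in B6 and by 1.09 and 0.91 in A/J. Prpf31, which joins the U4/U6 and U5 snRNPs, fell by 0.96 in B6 and by 0.88 in A/J, and Prpf8, the large U5 protein at the catalytic centre, by 0.76 in B6 and by 0.90 in A/J. Prpf19, the ubiquitin ligase of the complex named after it, fell by 0.69 in B6 and by 0.79 in A/J. Prpf18, a factor of the second catalytic step, rose in both strains: it was at 8.54, 8.70 and 8.64 in B6 at PN0 against 8.28, 8.20 and 8.08 at E15.5, and at 8.72, 8.66 and 8.54 in A/J at PN0 against 8.21, 8.17 and 8.20 at E15.5. No PN0 replicate was as low as any E15.5 replicate, and the differences were 0.44 ± 0.09 (adjusted p = 5.62e-05) in B6 and 0.45 ± 0.09 (adjusted p = 4.6e-05) in A/J. Prpf38b had the smallest range over time in this role and differed by -0.15 ± 0.07 in B6 and -0.03 ± 0.07 in A/J. Prpf40b, a U1-associated protein, differed by -0.32 ± 0.11 in B6, which passed, and by -0.09 ± 0.11 in A/J, which did not.

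**Figure D2:**
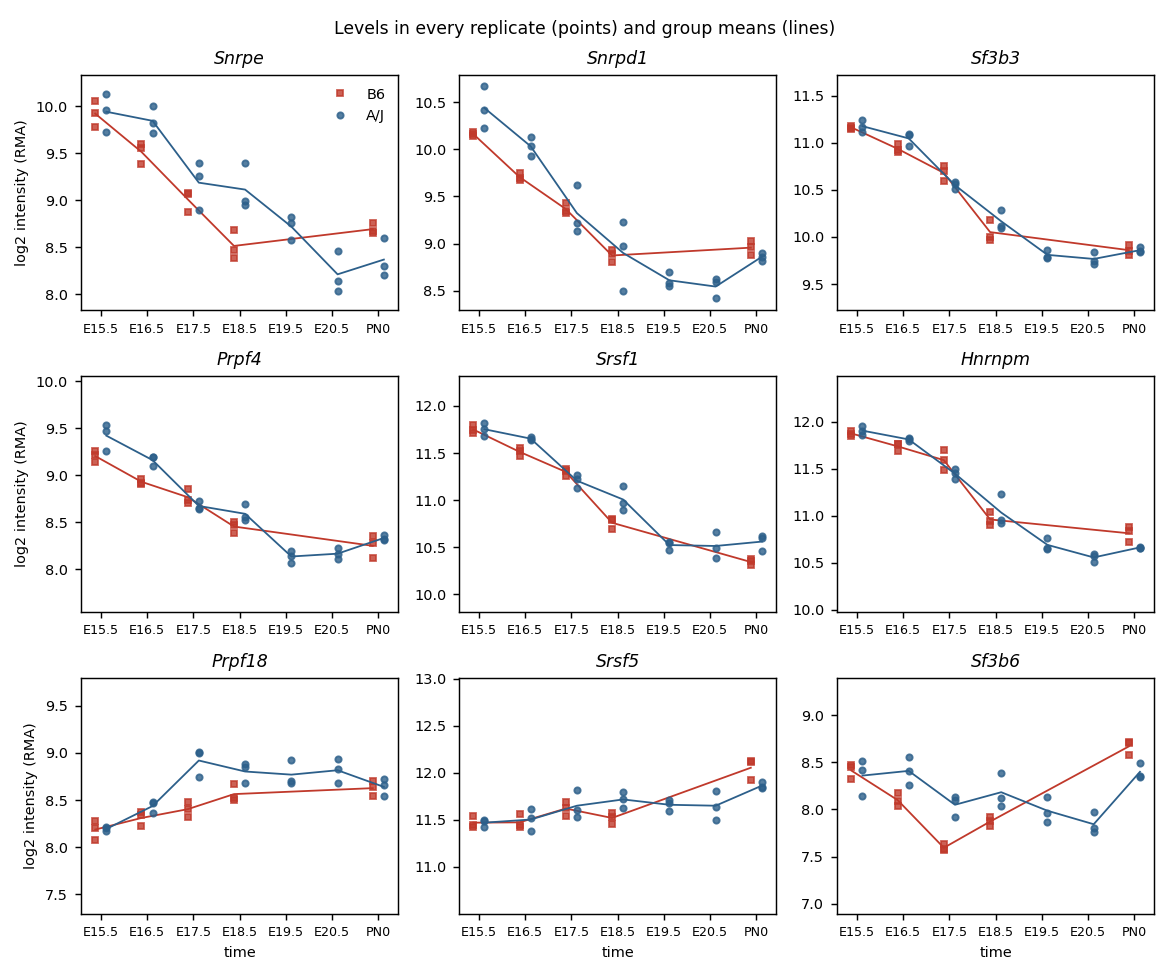
Points are the log2 intensities of each replicate and lines the group means for 9 genes over time, B6 as red squares and A/J as blue circles; the PN0 position is shared although birth came later in A/J. The 6 genes of the upper rows fall steeply, Prpf18 and Srsf5 rise, and Sf3b6 dips before birth and is higher again at PN0 in both strains.

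Of the 10 SR protein genes, 8 fell in each strain and 1 rose. Srsf1, the founding SR protein, had levels of 10.37, 10.35 and 10.31 in B6 at PN0 against 11.74, 11.71 and 11.80 at E15.5, and of 10.46, 10.60 and 10.62 in A/J at PN0 against 11.76, 11.82 and 11.68 at E15.5. The differences of -1.41 ± 0.07 (adjusted p = 5.41e-17) in B6 and -1.19 ± 0.07 (adjusted p = 2.01e-15) in A/J were much larger than the gaps between litters. Srsf9, Srsf6 and Srsf2 fell by 0.57, 0.64 and 0.71 in B6 and by 0.82, 0.63 and 0.55 in A/J. Srsf3 fell by 0.66 in B6 and by 0.80 in A/J on the probe set used, which lies among genes of another chromosome, and by 1.23 in B6 and 1.19 in A/J on the one among genes of its own. Srsf4 fell by only 0.17 in B6 and 0.22 in A/J and had the smallest range over time among the SR genes. Srsf12, whose replicates all lay between 4.80 and 5.72, fell by 0.33 in B6 and by 0.41 in A/J.

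Srsf5, an SR protein gene that responds to insulin in other cells, rose. It was at 11.92, 12.11 and 12.13 in B6 at PN0 against 11.45, 11.54 and 11.42 at E15.5, and at 11.84, 11.90 and 11.85 in A/J at PN0 against 11.49, 11.50 and 11.42 at E15.5. The lowest PN0 replicate was above the highest E15.5 replicate in both strains, with differences of 0.58 ± 0.08 (adjusted p = 3.28e-07) in B6 and 0.39 ± 0.08 (adjusted p = 0.000134) in A/J. Srsf11, an SR-related protein, differed by 0.14 ± 0.07 in B6 and -0.06 ± 0.07 in A/J and did not pass.

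All 17 hnRNP genes fell in both strains, over a wide range of sizes. Hnrnpm, whose product binds GU-rich RNA, was at 10.84, 10.88 and 10.72 in B6 at PN0 against 11.90, 11.85 and 11.87 at E15.5, and at 10.66, 10.66 and 10.67 in A/J at PN0 against 11.90, 11.95 and 11.86 at E15.5. This difference, of -1.06 ± 0.07 in B6 and -1.24 ± 0.07 in A/J, was the largest of the role in each strain. Hnrnpu, a chromatin-associated scaffold protein, fell by 1.01 in B6 and by 0.90 in A/J, and Hnrnph1, which binds runs of G, by 0.89 in B6 and by 0.78 in A/J. Hnrnpa2b1 fell by 0.77 in B6 and by 0.48 in A/J, and Hnrnpll by 0.65 in B6 and by 0.45 in A/J. At the other end Hnrnpk, a protein that binds runs of C, was at 12.43, 12.68 and 12.64 in B6 at PN0 against 12.83, 12.85 and 12.86 at E15.5, and at 12.70, 12.58 and 12.63 in A/J at PN0 against 12.85, 12.87 and 12.78 at E15.5. Its fall of 0.26 in B6 and 0.20 in A/J passed the test without overlap of the groups. Hnrnpul2 had the smallest range over time, with falls of 0.24 in B6 and 0.25 in A/J.

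The probe sets used for 8 genes (Hnrnpf, Hnrnph2, Hnrnpk, Sf3b4, Snrpc, Snrpg, Srsf10 and Srsf3) lie among genes of another chromosome in the order of the probe set numbers, and how much of their signal comes from similar sequences elsewhere was not tested. Besides Sf3b4, calls of Srsf10 and Hnrnpk depended on this choice. Srsf10 differed by -0.49 in B6 and -0.32 in A/J on the probe set used, which both passed, and by -0.11 in B6 (adjusted p = 0.451) and -0.34 in A/J on the one among genes of its own chromosome, where the B6 call was lost. Hnrnpk has 2 further probe sets among genes of its own chromosome: both passed in B6, and in A/J 1 passed with -0.20 and the other did not with -0.15 (adjusted p = 0.0886). The counts above rest on the probe sets used.

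Markers of dividing cells moved with these genes. All 23 measured proliferation markers fell in both strains, with medians of -2.53 in B6 and -2.97 in A/J, and their mean level was between 7.52 and 7.61 in B6 replicates at PN0 against 10.05 and 10.11 at E15.5, and between 6.99 and 7.26 in A/J replicates at PN0 against 10.04 and 10.16 at E15.5. Of 6 mesenchyme markers 4 fell and 2 rose in each strain, and all 6 neutrophil markers rose in each. Of the 6 endothelium markers 5 rose in B6 and 6 in A/J, of the 6 macrophage markers 4 rose in B6 and 6 in A/J, and in each strain 7 of 8 heart markers rose and, of 7 lung epithelium markers, 5 rose and 1 fell. Their part in the fall of the splicing factor genes was not tested, and in whole lung a smaller share of cells that express a gene and less RNA per cell cannot be told apart.

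Much of the fall was reached by E17.5, when the median difference from E15.5 over the 61 genes was -0.45 in B6 and -0.51 in A/J. Later it was -0.60 at E18.5 in B6, and in A/J -0.73 at E19.5 and -0.80 at E20.5, before -0.63 at PN0. With quantile normalization the E17.5 median was -0.34 in B6 and -0.49 in A/J. Against E15.5, 27 of the 61 genes were lower in B6 at E16.5 (7.52% of all probe sets). By E17.5 this count was 49 (21.9%), and on the following day 56 (24%). In A/J 6 genes were lower at E16.5 (1.97%) and 47 a day later (20.6%). The A/J count was then 45 on day E18.5 (4021 of the 21789 probe sets), 53 on day E19.5 (25.3%) and also 53 on day E20.5 (26.1%). With every array centred the A/J count at E18.5 was 53, beside 29.9% of all. Whether these counts differ between the strains was not tested. Of the 53 genes lower at PN0 in B6, 25 first passed as lower at E16.5 and 21 a day later, and of the 53 in A/J, 6 first passed at E16.5 and 39 a day later. The 6 early genes of A/J were Prpf19, Prpf31, Prpf4, Snrpd1, Snrpd3 and Srsf9, all of which were also lower at E16.5 in B6.

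Each day was also compared with the day before. In B6, 30 genes were lower on E17.5 than on E16.5 (9.16% of all probe sets), and 27 were lower on E18.5 than on E17.5 (11%). These B6 counts moved with the scaling. With every array centred they were 45 (16.3%) and 20 (7.62%), and with quantile normalization 22 (8.29%) and 33 (12.4%). In A/J, 43 were lower on E17.5 than the day before (15.9%), 9 on E18.5 (4.56%), 42 on E19.5 (23.7%) and 0 on E20.5 (0.509%) by limma, where 9 were lower on E20.5 at an unadjusted p under 0.05. The A/J steps into and out of E18.5 depend on the raised medians of those arrays. The median over all probe sets shifted by 0.12 in the step into E18.5 and by -0.10 in the step out of it, and with every array centred 12 genes were lower after the step in, beside 9.62% of all, and 26 after the step out, beside 13.9% of all.

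**Figure D3:**
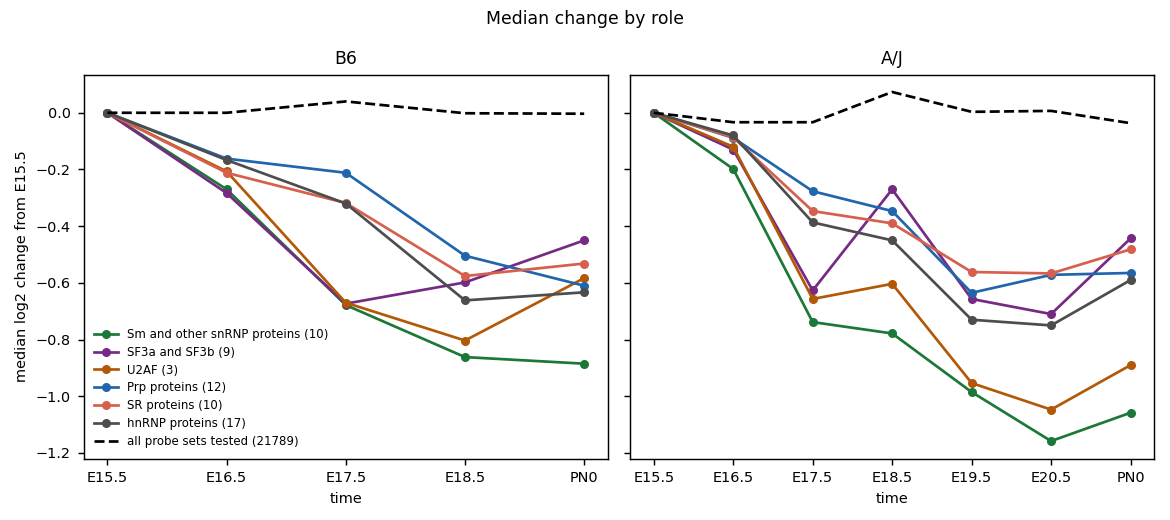
Lines give the median log2 difference from E15.5 over the genes of each role (their number in the legend) and, dashed, over all 21789 probe sets tested, at each time in B6 (left) and A/J (right). The snRNP proteins reach -0.89 in B6 and -1.06 in A/J at PN0, the other roles fall less, and the dashed line stays near 0.

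In a test over all times, with a fold of 2 between the highest and the lowest mean and adjusted p under 0.01, 12 of the 61 genes changed in B6 (14.4% of all probe sets) and 21 in A/J (17.8%). The share of the 61 genes was 19.7% in B6 and 34.4% in A/J, where 24 genes changed with every array centred (17.9% of all). These counts depend on the fold: with 1.5 in place of 2, 43 genes changed in B6 (33.6% of all probe sets) and 41 in A/J (39.2%). Without the fold, 56 genes passed in each strain, beside 51.8% of all probe sets in B6 and 60% in A/J. The highest mean was at E15.5 for 52 genes in B6 and 47 in A/J. The lowest mean was at E18.5 for 26 genes and at PN0 for 25 in B6, and at E20.5 for 35 in A/J. The shares of all probe sets with their highest or lowest mean at these times were not counted, so these counts only describe the 61 genes.

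The strains were next compared at the same embryonic day. At E15.5 no gene passed as higher or lower in B6 than in A/J (1.31% and 1.14% of all probe sets) by limma, with 0 higher and 7 lower at an unadjusted p under 0.05. At E16.5, 8 were lower in B6 (4.83%), among them Hnrnpc by 0.49, U2af2 by 0.40 and Prpf38a by 0.31. This count was 1 to 6 when single replicates were left out (5 without A/J E16.5 replicate 1, 2 without A/J replicate 3, and 3, 1 and 4 without B6 replicates 1, 2 and 3). With quantile normalization 3 were lower at E16.5 (2.78%). At E17.5, 3 were lower in B6 (6.73%), Prpf18 by 0.52, Sf3b6 by 0.46 and Hnrnpl by 0.21, and with every array centred 8 were lower, beside 12.9% of all probe sets. Prpf18 was at 8.48, 8.32 and 8.41 in B6 and at 9.01, 9.0 and 8.75 in A/J at E17.5.

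At E18.5, B6 lungs had 31 genes lower than A/J lungs (27.7% of all probe sets) and none was higher (4.08%), also at an unadjusted p under 0.05. The median difference over the 61 genes was -0.22, beside -0.13 over all probe sets, and -0.14 beside -0.04 after centring. With every array centred on its median 11 genes were lower, all of them among the 31, beside 12.4% of all probe sets, and with quantile normalization also 11, beside 8.94%. With only these 2 groups in the fit 6 were lower, beside 10.1% of all. The 11 genes under centring were Hnrnpd, Hnrnpl, Hnrnpll, Prpf19, Prpf3, Sf3a3, Sf3b2, Sf3b4, Sf3b5, Snrpe and U2af1. Snrpe was the only one of the 61 past a fold of 1.5 (3.04% of all probe sets): it was at 8.39, 8.69 and 8.47 in B6 against 8.99, 9.40 and 8.95 in A/J, without overlap, a difference of -0.60 ± 0.14 (adjusted p = 0.0014) as deposited and -0.51 (adjusted p = 0.00883) after centring. U2af1 was at 8.30, 8.33 and 8.25 in B6 against 8.73, 8.83 and 8.83 in A/J, a difference of -0.50 as deposited and -0.42 after centring. Proliferation markers were lower in B6 in 17 of 23 cases (median -0.60), 6 of 6 smooth muscle markers were lower (median -0.55) and 5 of 8 markers of esophagus and upper airway (median -1.18). These marker values are as deposited and were not repeated with every array centred, and their part in the difference was not tested.

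**Figure D4:**
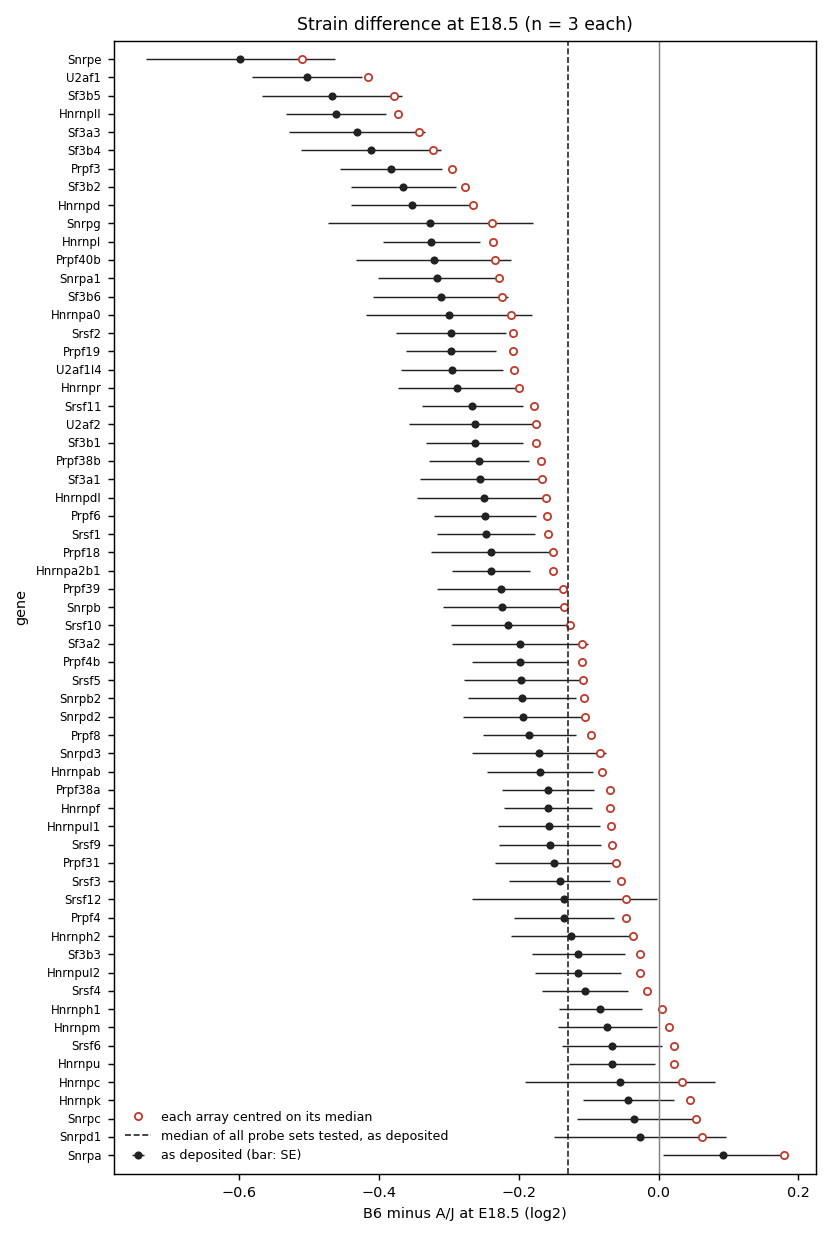
Filled points give the B6 minus A/J difference at E18.5 for each of the 61 genes (log2, with SE, 3 replicates each) as deposited, open points the same after every array was centred on its median, and the dashed line the median of all probe sets as deposited (-0.13). Centring moves every gene to the right, and Snrpe, U2af1, Sf3b5 and Hnrnpll stay lowest.

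Set against A/J lungs 1 day older, B6 lungs at E18.5 had 6 genes higher and none lower than A/J lungs at E19.5 (4.78% of all probe sets higher, 5.15% lower) by limma, with 2 lower at an unadjusted p under 0.05. These were Sf3a1 (0.36 ± 0.09), Prpf4 (0.32 ± 0.07), Prpf31, Hnrnpm, Srsf1 and Sf3b3, the last 4 between 0.24 and 0.28. Sf3a1 was at 8.72, 8.49 and 8.64 in B6 at E18.5 and at 8.37, 8.10 and 8.31 in A/J at E19.5. The count was 3 without A/J E19.5 replicate 1 and 3 without A/J E19.5 replicate 2, and 0 when only the 2 groups entered the fit. Of 23 proliferation markers 20 were higher in the B6 lungs of this comparison (median 0.63).

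At PN0, where the strains were not of equal age, 3 genes were higher in B6 (6.71% of all probe sets) and 5 lower (13.2%). Hnrnpc (0.51 ± 0.14), Sf3b6 (0.27 ± 0.10) and U2af1 (0.24 ± 0.08) were higher, and Hnrnpa2b1 (-0.28 ± 0.06), Prpf31, Prpf3, Srsf1 and Prpf4b were lower. These counts moved with the scaling: with every array centred 1 gene was higher (5.72%), and with quantile normalization 8 were higher (8.79%) and 1 lower (9.83%). Averaged over the 5 times that both strains share, 33 genes were lower in B6 (28.9% of all probe sets) and none higher (12.8%), again with none at an unadjusted p under 0.05. With every array centred 34 were lower (29.8%), and with quantile normalization 6 (15.4%).

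Testing whether the difference between PN0 and E15.5 itself differed between the strains gave 1 gene higher in B6, U2af1 (1.98% of all probe sets), and 1 lower, Hnrnpa2b1 (3.96%), so the courses of the other 59 genes could not be separated by this test at 3 litters a group.

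Across birth, PN0 was compared with the last embryonic day sampled, E18.5 in B6 and E20.5 in A/J. The interval was about a day in B6 and a few hours in A/J, so the 2 comparisons are given side by side. In B6 9 genes were higher at PN0 (12.5% of all probe sets) and 13 lower (14.4%). In A/J 17 were higher (12%) and none lower (8.09%) by limma, with 2 lower at an unadjusted p under 0.05. With only the 2 groups compared in the fit, 4 were higher (8.84%) and 3 lower (10.1%) in B6 and 11 higher (8.57%) in A/J. Hnrnpab, Sf3a2, Sf3b6, Snrpa1 and U2af1 were higher in both strains, and no gene was higher in one and lower in the other. The share of all probe sets that rose in both strains across birth was not counted, so no likeness of the strains is read from this.

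Sf3b6 changed most across birth in both strains and alone exceeded a fold of 1.5 in B6 (3% of all probe sets). Its levels were 8.58, 8.71 and 8.72 in B6 at PN0 against 7.82, 7.88 and 7.92 at E18.5, a difference of 0.80 ± 0.10 (adjusted p = 2.1e-07), and 8.35, 8.49 and 8.36 in A/J at PN0 against 7.80, 7.97 and 7.76 at E20.5, a difference of 0.56 ± 0.10 (adjusted p = 8.3e-05). No replicate at PN0 was below any replicate of the preceding embryonic day. U2af1 was at 8.78, 8.79 and 8.79 in B6 at PN0 against 8.30, 8.33 and 8.25 at E18.5, and at 8.43, 8.63 and 8.57 in A/J at PN0 against 8.28, 8.04 and 8.11 at E20.5. Again the groups were apart, with differences of 0.49 ± 0.08 in B6 and 0.40 ± 0.08 in A/J.

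In A/J the genes that rose at birth spread over the roles: Prpf31 (0.52), Sf3a1 (0.50), Snrpb (0.45), Snrpa1 (0.43), Hnrnpab (0.42), Srsf2 and Hnrnpd (both 0.37) led them beside Sf3b6 and U2af1. In B6 Srsf5 (0.53) and Sf3b4 (0.48) rose beside Sf3b6 and U2af1, and Srsf1 (-0.42), Hnrnpa2b1 (-0.38) and Snrpa (-0.35) led the genes that fell. The Sf3b4 value is from the probe set among genes of another chromosome. Its SD at B6 E18.5, 0.254, was the highest of the splicing factor genes in that group. Srsf1 was at 10.37, 10.35 and 10.31 in B6 at PN0 against 10.79, 10.69 and 10.80 at E18.5, and at 10.46, 10.60 and 10.62 in A/J at PN0 against 10.39, 10.66 and 10.49 at E20.5. Without B6 E18.5 replicate 2 the count of genes lower in B6 was 8, as it was with every array centred, beside 11.7% of all probe sets. Over the same intervals 20 of 23 proliferation markers fell in B6 (median -0.65) and 5 rose in A/J (median 0.19), all 6 neutrophil markers rose in both strains (medians of 2.22 in B6 and 0.95 in A/J), and 5 of 6 mesenchyme markers fell and 1 rose in B6. Of 6 smooth muscle markers 3 rose and 1 fell in B6 (median 0.55) and 5 rose in A/J (median 0.98). The part of these cells in the changes at birth was not tested.

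**Figure D5:**
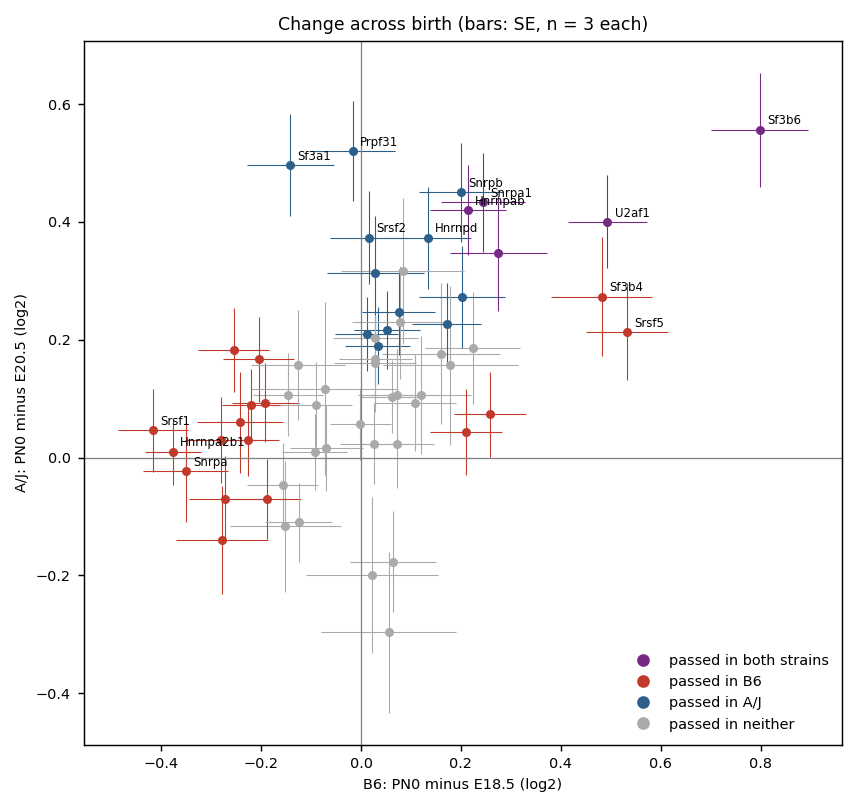
Each point is 1 of the 61 genes, with the PN0 minus E18.5 difference in B6 on the horizontal axis and the PN0 minus E20.5 difference in A/J on the vertical axis (log2, bars give the SE, 3 replicates per group), coloured by the strain in which it passed the test. Sf3b6 and U2af1 stand at the upper right, with 0.80 and 0.49 in B6 and 0.56 and 0.40 in A/J, and Srsf1 stands at the far left with -0.42 in B6.

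The genes that work with these factors were read from lists of the pathway, of which 149 of 157 genes were measured. Of 10 Lsm genes, whose ring binds U6 small nuclear RNA or decaying mRNA, 8 fell from E15.5 to PN0 in B6 and 9 in A/J, with medians of -0.89 in B6 and -1.05 in A/J. Lsm6 fell by 1.34 in B6 and by 1.23 in A/J, the most of the list, and Lsm10, of the U7 snRNP of histone mRNA, rose in A/J by 0.31. Of 14 genes for loading the Sm ring, 13 fell in each strain, with differences of -1.95 in B6 and -1.40 in A/J for Gemin6, of the SMN complex, and of -1.39 in B6 and -1.103 in A/J for Prmt5, which methylates Sm tails. Gemin7 alone rose, by 0.21 in B6 and by 0.34 in A/J. Of 18 other snRNP genes 14 fell in B6 and 15 in A/J, with differences of -1.40 in B6 and -1.59 in A/J for Ppih, a tri-snRNP cyclophilin, and of -1.26 in B6 and -1.28 in A/J for Eftud2, the U5 GTPase.

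Later-acting and regulatory genes were less uniform. Of 24 genes of the Prp19 complex and the catalytic steps 16 fell and 3 rose in B6, and 17 fell and 1 rose in A/J; Aqr, an intron-binding helicase, fell by 1.003 in B6 and by 0.85 in A/J, whereas Syf2 rose by 1.003 in B6 and by 0.93 in A/J. Of 20 SR-related and exon junction genes 10 fell in B6 and 12 in A/J, and Tra2b, an activator of exon use, fell by 0.79 in B6 and by 0.86 in A/J. Of 29 hnRNP-like RNA-binding genes 21 fell and 5 rose in B6, and 20 fell and 3 rose in A/J. Tia1, of stress granules, differed by -2.35 in B6 and by -1.68 in A/J.

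Cirbp, the cold-inducible RNA-binding protein, rose between E15.5 and PN0, by 1.42 in B6 and by 1.30 in A/J. This rise lay at birth: Cirbp was at 10.72, 10.86 and 10.92 in B6 at PN0 against 9.23, 9.04 and 9.45 at E18.5, and at 10.94, 10.67 and 11.01 in A/J at PN0 against 9.38, 9.55 and 9.99 at E20.5. Its relative Rbm3, also induced by cold, was at 12.42, 12.37 and 12.39 in B6 at PN0 against 11.93, 11.94 and 11.74 at E18.5, and at 12.60, 12.55 and 12.55 in A/J at PN0 against 11.00, 11.45 and 11.56 at E20.5. Both were higher at PN0 in every replicate, Cirbp by 1.59 in B6 and 1.23 in A/J and Rbm3 by 0.52 in B6 and 1.23 in A/J.

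Regulators known from particular tissues included risers and fallers, as all probe sets did. Of 26 measured, 9 rose and 7 fell in B6, and 8 rose and 9 fell in A/J. Over all probe sets tested 24.4% rose and 26.6% fell in B6, and 25.2% rose and 25.8% fell in A/J. The same shares stand beside the counts of kinases below. Rbpms rose by 0.90 in B6 and by 0.92 in A/J, and Qk by 0.63 in B6 and by 0.86 in A/J. Of the epithelial regulators, Esrp2 rose by 0.53 in B6 and by 0.69 in A/J, and Esrp1 fell by 0.52 in B6 and by 0.54 in A/J. Of 8 kinases that phosphorylate SR proteins 2 rose and 3 fell in B6, and 4 rose and 4 fell in A/J. Srpk1, a cytoplasmic SR kinase, fell by 0.95 in B6 and by 0.87 in A/J, and the nuclear kinases Clk3 and Clk4 rose, by 0.33 and 0.43 in B6 and by 0.60 and 0.40 in A/J. Prpf4b stands in this list and among the 61 genes.

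The start regions of the genes were searched for 8 motifs on both strands, using the RefSeq promoters of GRCm38.p6 from 250 bases before to 50 bases after a start, which covered 53 of the 61 genes, 12 of them with several starts, of which any was counted. The ETS motif CCGGAAGT was found for 11 genes (20.8%), beside 6.03% of the 15563 measured genes with a promoter. These 11 genes were Hnrnpd, Hnrnpf, Prpf4b, Prpf6, Sf3a1, Sf3a3, Sf3b2, Snrpe, Srsf11, Srsf4 and Srsf5, which include steep falls, small ones, and the riser Srsf5. The E2F motif TTTCGCGC was found for 2 genes (3.77% beside 0.52% of all), the ZBTB33 motif TCTCGCGA for 3 (5.66% beside 1.71%), the E-box CACGTG for 8 (15.1% beside 9.52%), the NRF1 motif GCATGCGC for 3 (5.66% beside 4.29%), the GC box GGGCGG for 36 (67.9% beside 53%), CCAAT for 26 (49.1% beside 41.7%) and TATAAA for 6 (11.3% beside 13.6%). A match is a description of the letters and no evidence that a factor binds there.

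The stretches of 150 bases before the start are shown for 2 genes with the ETS motif that moved in opposite directions (Sf3a3 down, Srsf5 up) and for the 2 genes with the E2F motif, both of which fell. Each is given 5′ to 3′ along the gene, with all motif matches in capitals; letters shared by overlapping motifs are written once. They lie at chr4:124714711-124714860 on the plus strand (Sf3a3), chr12:80945349-80945498 on the plus strand (Srsf5), chr7:27195761-27195910 on the minus strand (Snrpa) and chr4:108579337-108579486 on the minus strand (Prpf38a).
Sf3a3: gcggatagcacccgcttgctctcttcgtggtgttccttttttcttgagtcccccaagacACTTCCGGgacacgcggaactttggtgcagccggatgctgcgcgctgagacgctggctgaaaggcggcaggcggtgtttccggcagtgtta
Srsf5: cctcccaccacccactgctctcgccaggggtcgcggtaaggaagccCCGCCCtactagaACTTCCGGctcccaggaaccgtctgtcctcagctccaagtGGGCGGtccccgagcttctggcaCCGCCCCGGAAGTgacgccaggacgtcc
Snrpa: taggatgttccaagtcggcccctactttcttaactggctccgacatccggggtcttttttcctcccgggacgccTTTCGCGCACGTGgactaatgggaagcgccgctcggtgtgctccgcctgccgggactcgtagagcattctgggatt
Prpf38a: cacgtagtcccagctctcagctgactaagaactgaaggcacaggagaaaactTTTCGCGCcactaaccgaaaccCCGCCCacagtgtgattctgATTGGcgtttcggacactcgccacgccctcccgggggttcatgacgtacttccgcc
Sf3a3 and Srsf5 thus share the ETS letters, which Sf3a3 holds only once, although Sf3a3 was lower by 0.90 in B6 and 0.98 in A/J at PN0 and Srsf5 was higher. In Snrpa the E2F letters run straight into an E-box, and in Prpf38a they stand upstream of a GC box and an inverted CCAAT box.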

How the data were processed

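The authors hybridised pooled litter RNA to Affymetrix Mouse Gene 1.0 ST arrays and deposited log2 intensities normalized by RMA (Affymetrix Expression Console 1.1 is named in the submitters' processing notes); the deposited log2 values were used as they stand. Of 35556 probe sets, the 21789 with exactly 1 gene symbol were tested, and 1621 with several and 12146 with none were left out. Arrays 2 and 2b of B6 E18.5 were averaged as 1 replicate, giving 36 replicates from 37 arrays; the origin of 2b is not stated. The functional Bayesian time series model of the study's methods was not run. A mean for each of 12 groups was fitted with limma 3.58.1 (R 4.3.3, 24 residual degrees of freedom), with Benjamini-Hochberg adjustment. The number of arrays limits the precision. Checked on data simulated with independent normal noise of the fitted spread, the fit recovered changes planted in a small share of probe sets. The simulated data held no shift of whole arrays and far fewer changed probe sets than the real data. The check therefore cannot speak to the raised A/J E18.5 medians. The share recovered among small changes is not given, so complete recovery is not claimed. Genes named with values are the 10 largest falls and rises in each strain, those past a fold of 1.5 between strains or at birth, and, in each role, the genes of highest and lowest mean and of smallest range; other named genes were chosen after their values were seen. Members, gene lists and tests were chosen with earlier results of these data known. Alternatives are given in the closing section.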

Additional observations from a re-analysis of the deposited data

Results flagged for a closer look

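U2af1 and Hnrnpa2b1 are given here because their change between E15.5 and PN0 differed between the strains in limma's test of that difference, with adjustment over all 21789 probe sets. U2af1 fell less in B6, by 0.58, than in A/J, by 0.98, a difference between the changes of 0.39 ± 0.11 (adjusted p = 0.03). Its levels were 8.78, 8.79 and 8.79 in B6 at PN0 against 9.41, 9.38 and 9.32 at E15.5, and 8.43, 8.63 and 8.57 in A/J at PN0 against 9.52, 9.59 and 9.45 at E15.5. The adjusted p was 0.0564 after centring each array, and between 0.0527 and 0.0868 without any one of A/J E15.5 replicate 1 or 2, A/J PN0 replicate 1, B6 E15.5 replicate 2 or 3, or B6 PN0 replicate 2 or 3.

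Hnrnpa2b1 fell more in B6, by 0.77, than in A/J, by 0.48, a difference of -0.29 ± 0.08 (adjusted p = 0.023). It was at 10.87, 10.80 and 10.78 in B6 at PN0 against 11.61, 11.55 and 11.61 at E15.5, and at 11.04, 11.10 and 11.14 in A/J at PN0 against 11.58, 11.61 and 11.53 at E15.5. The adjusted p was 0.0975 when only the 4 groups entered the fit, and between 0.0507 and 0.0635 without any one of A/J E15.5 replicate 3, A/J PN0 replicate 3, B6 E15.5 replicate 1 or 3, or B6 PN0 replicate 2 or 3. PN0 is not the same age in the 2 strains, which cannot be told apart from strain here.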

How the results depend on the processing

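Counts below are of the 61 genes. The falls between E15.5 and PN0 changed little: without each replicate in turn 51 to 53 fell in each strain, 2 to 3 rose in B6 and 2 in A/J. Under the alternatives, 563 values of 29 named results gave 545 of the same direction at adjusted p under 0.05, 18 no longer past it and 0 reversed. The fold of 1.5 by which Snrpe at E18.5 and Sf3b6 across birth in B6 were also named was not applied in this count. Some of these values could not move. Keeping the platform's own gene symbols changed 0 symbols. Reading 8 genes by the probe set beside genes of their own chromosome touched none of the genes of these 29 named results. Sf3b4, Srsf10 and Hnrnpk are among those 8 genes, and the values of their other probe sets are given above. Stricter thresholds did not enter this count, and the named results had been chosen because they passed. With a replicate block the counts were 53 lower and 3 higher in B6 and 53 lower and 2 higher in A/J. Replicate numbers are shared between groups, and no label says that a number marks a shared litter or day. Deviations of same-numbered replicates correlated at -0.00997 on average (range -0.413 to 0.389). An average over all groups cannot exclude a pairing between some of them. The block moved no count by over 1.5 times.

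The strain comparisons moved more, and the cause was not tested. Centring each array gave 8 lower at E17.5 (12.9% of all) and 11 lower at E18.5 (12.4%) (0 with a fold of 1.5, chosen after seeing the data). It gave 8 lower across birth in B6 (11.7%) and 0 higher for the difference between changes (1.66%). Quantile normalization gave 3 lower at E16.5, 2 higher at E17.5, 11 lower at E18.5, 2 lower across birth in A/J, 2 higher for the difference between changes, and 2 higher and 6 lower over the 5 shared times, where the two-way model of the methods gave 3 lower. With 12811 brighter probe sets (60 genes left), 5 were lower at E17.5, 1 was lower for B6 E18.5 against A/J E19.5 and 2 were higher for the difference between changes, also 2 with a trended and robust fit. With only the groups compared, 6 were lower at E18.5 (10.1% of all probe sets), 0 higher for B6 E18.5 against A/J E19.5, 11 higher across birth in A/J (8.57% of all), 4 higher (8.84%) and 3 lower (10.1%) across birth in B6, and 0 lower for the difference between changes. Array 2b left out, or kept as a replicate of its own, gave 5 lower at E16.5. As its own it gave 1 lower for B6 E18.5 against A/J E19.5, and in place of array 2 it gave 2 higher for the difference between changes. Where no share of all probe sets stands beside a count in this paragraph, that share was not counted.

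At adjusted p under 0.01, 2 were lower at E16.5, 19 lower at E18.5, 2 higher for B6 E18.5 against A/J E19.5, 9 higher across birth in A/J, 5 higher and 8 lower across birth in B6, and 0 for the difference between changes. The shares of all probe sets were not counted at this threshold, so these counts cannot be set against the array as a whole. With a fold of 1.5 added, 34 fell and 0 rose in B6, 35 fell and 0 rose in A/J, 0 were lower at E16.5 and E17.5 and 1 at E18.5, 0 were higher for B6 E18.5 against A/J E19.5, 0 higher across birth in A/J, 1 higher and 0 lower in B6, 0 differed in change and 0 were lower over the 5 times. With 1.5 in place of the fold of 2 used for change over time, 43 changed in B6 and 41 in A/J.

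Without single replicates the counts ranged from 0 to 1 lower at E15.5, 1 to 6 lower at E16.5, 0 to 1 higher and 2 to 3 lower at E17.5, 22 to 33 lower at E18.5, 3 to 7 higher and 0 to 1 lower for B6 E18.5 against A/J E19.5, 6 to 10 higher and 8 to 11 lower across birth in B6, 12 to 15 higher in A/J, 0 to 2 higher and 0 to 1 lower for the difference between changes, 0 to 1 higher and 27 to 34 lower over the 5 times, and 11 to 14 changed over time in B6 and 19 to 22 in A/J. The shares of all probe sets were not counted in these fits without single replicates. The 3 litters of a group limit what the small strain differences can show, and a probe set measures all transcripts of a gene together, so exon use was not measured.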
